A study of Mus musculus with 6 samples.

Results

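The lung endothelial genes described here are 38 genes of the cells that line blood vessels. They make up a list of known vascular genes, chosen with earlier results of these data known. They were measured in preparations of lung antigen presenting cells, the macrophages, dendritic cells and other cells that show antigen to T cells. Of the 19057 genes named on the arrays, all 38 had at least 1 probe, and each was read from its brightest probe by mean over the 6 arrays. The preparations came from female C57BL/6 mice, with 2 Illumina arrays in each of 3 groups. Mice of the first group were wild type and breathed room air, those of the second were wild type and were given cigarette smoke for 4 months, and those of the third were Spp1-/- and received the same smoke. Spp1 encodes osteopontin, a secreted matrix protein and cytokine. No Spp1-/- room air arrays were analysed here, and neither the age of the mice, the number of mice behind an array nor the way the cells were isolated is given in the sources used here.

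Endothelial cells form the inner wall of every vessel, and in the lung they make up the capillary side of the gas exchange barrier. Their junctions are built from cadherins and claudins, their growth and quiescence are set by VEGF, angiopoietin and BMP receptors, and Sox transcription factors of the F group take part in fixing their identity. The lung capillary bed holds general capillary cells, known for Gpihbp1 and Plvap, and wide thin aerocytes, known for Car4 and Ednrb. Of the 38 genes, 13 are also well known in other cells, such as Car4 in alveolar macrophages, Vwf in platelets, Pecam1 and Icam2 in leukocytes and Thbd in monocytes and dendritic cells.

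Promoter sequences are shown first, since many endothelial promoters are known to be bound by ETS family factors. The part of such factors in the changes on these arrays was not tested. RefSeq promoters of GRCm38.p6 were at hand for 20 of the 38 genes, as 23 start sites. Each was read over the 250 bases before the start site, on both strands. The ETS letters AGGAAG or CGGAAG stood in 14 of the 23 promoters (60.9%), against 39.2% of 32851 promoters of all genes. The letters ACAGGAA, part of a known composite site of FOX and ETS factors that overlaps the ETS letters, stood in 6 of the 23 (26.1%), against 7.2% of all. The SOX letters AACAAT were found in 13.0% against 9.4%, and the hypoxia element core ACGTG in 8.7% against 16.6%. The GATA letters AGATAA stood in 1 of the 23 (4.3%), a smaller share than the 3281 of 32851 among all promoters. The median GC content was 56.8% in the endothelial promoters and 52.4% in all promoters, and the part of base composition in these shares was not tested. The 4 promoters below belong to the genes with the largest falls that held an ETS match, each written 5′ to 3′ on the strand of its gene, with ETS letters of either strand in capitals.
Myzap, chr9:71592361-71592610, minus strand: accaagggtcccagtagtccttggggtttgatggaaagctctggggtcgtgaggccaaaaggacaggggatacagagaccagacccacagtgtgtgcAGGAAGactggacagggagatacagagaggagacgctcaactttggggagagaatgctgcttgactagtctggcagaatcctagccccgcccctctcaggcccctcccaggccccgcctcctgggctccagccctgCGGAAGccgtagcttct
Egfl7, chr2:26580833-26581082, plus strand: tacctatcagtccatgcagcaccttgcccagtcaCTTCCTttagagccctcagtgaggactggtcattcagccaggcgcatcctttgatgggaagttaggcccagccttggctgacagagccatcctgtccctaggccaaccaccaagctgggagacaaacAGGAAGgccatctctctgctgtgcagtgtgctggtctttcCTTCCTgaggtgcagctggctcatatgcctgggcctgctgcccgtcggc
Adgrf5, chr17:43360181-43360430, plus strand: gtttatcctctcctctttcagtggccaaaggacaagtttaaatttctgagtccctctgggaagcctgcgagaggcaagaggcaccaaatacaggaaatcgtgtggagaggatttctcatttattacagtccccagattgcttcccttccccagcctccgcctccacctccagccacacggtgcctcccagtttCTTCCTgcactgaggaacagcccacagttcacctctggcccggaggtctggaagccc
Hpgd, chr8:56294302-56294551, plus strand: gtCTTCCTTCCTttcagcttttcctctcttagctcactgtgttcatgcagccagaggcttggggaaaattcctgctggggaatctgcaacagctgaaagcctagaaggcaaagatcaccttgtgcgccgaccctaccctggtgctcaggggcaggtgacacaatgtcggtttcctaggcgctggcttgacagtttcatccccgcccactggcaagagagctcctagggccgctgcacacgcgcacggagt
The Myzap matches began 153 and 17 bases before the start site, those of Egfl7 216, 89 and 49 bases before it and that of Adgrf5 57 bases before it. The overlapping pair of Hpgd lay 248 and 244 bases before its start. Further start sites, not shown, held 1 and 0 ETS matches for Egfl7 and 0 for Adgrf5. The composite letters stood in the Egfl7 and Adgrf5 promoters shown. A match is a description of letters, and binding was not measured.

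The values are log2 intensities as deposited. Over all 45281 probes their median was 7.264, the lowest was 6.619 and the highest 16.014, and 1 unit is a 2-fold difference in signal. Differences near the lower end are compressed by this floor. Comparisons were fitted with limma over the 12382 genes whose brightest probe lay in the brighter part of the arrays (mean of at least 7.274), and a gene was called at a Benjamini-Hochberg adjusted p under 0.05. Of the 38 endothelial genes, 33 passed this filter and Clec14a, Myct1, Tie1, Nos3 and S1pr1 did not. Whether 2 arrays of a group stand for different mice is not stated, and p-values therefore cover just the variation between these arrays, possibly technical. Over all probes, Pearson r between arrays of a group was 0.9773 for air, 0.9917 for wild type smoke and 0.9936 for the knockout. The annotation names no Spp1 probe, and the genotype label was not checked. Of the alveolar macrophage markers, Chil3 stood at 15.60 in air and 15.59 in wild type smoke, near the highest value, and Mrc1 at 13.66 and 13.95. Siglecf at 7.66 and 7.44 and Fabp4 at 7.05 and 7.36 lay near the median of all probes. So did the dendritic cell markers Flt3 (7.26 and 7.31), Xcr1 (7.28 and 7.21) and Zbtb46 (7.53 and 7.74). The dendritic cell markers Clec9a (9.09 and 9.69), Batf3 (9.04 and 8.51) and Ccr7 (9.78 and 9.65) were brighter, and their changes did not pass. Other markers of these cells changed, and are named here after their values were seen: Itgax rose by 0.84, Pparg by 0.67 and the dendritic cell gene Itgae by 2.05, and Krt79 fell by 1.14 from air to wild type smoke.

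**Figure D1:**
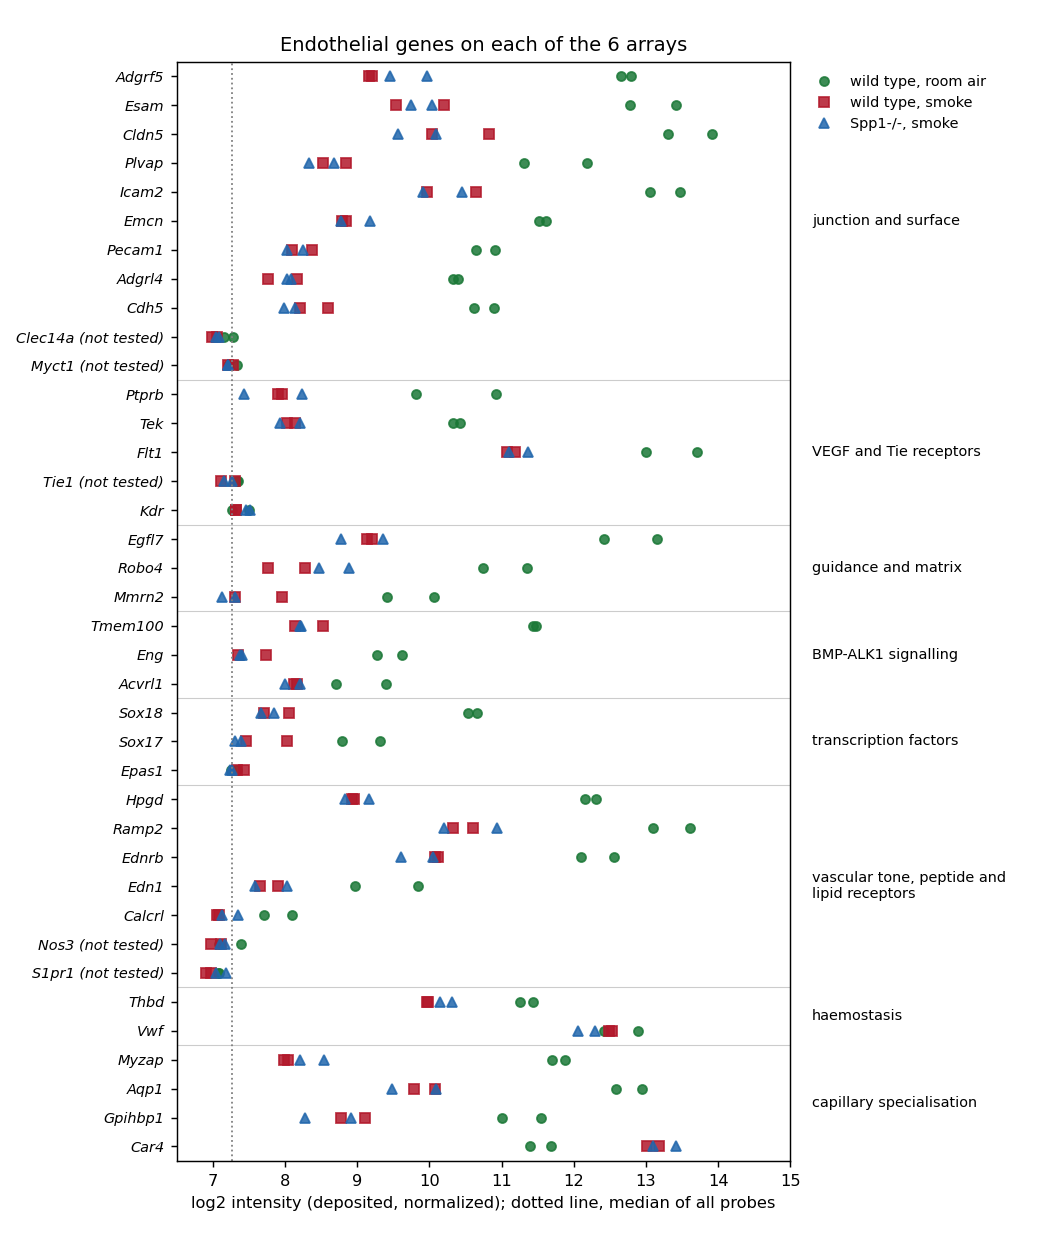
Log2 intensity of each of the 38 endothelial genes on each of the 6 arrays (x axis), grouped by role (y axis), with 2 points per group and a dotted line at the median of all probes, 7.264. The air arrays stand apart to the right for most genes, Car4 runs the other way, Vwf shows no separation between wild type air and wild type smoke, and the genes marked not tested lie at the dotted line in all groups.

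The first comparison set wild type smoke against wild type air. Endothelial genes were lower after smoke across nearly every role on the list, from junction proteins to receptors and transcription factors. Of the 38 genes, 28 fell, 1 rose, 4 did not pass and 5 were below the filter. Of all 12382 genes tested, 10.3% fell and 11.1% rose. The median log2 change was -2.38 over the 33 tested genes, against 0.04 over all genes tested. In a fit with no filter, which takes in all 38 genes and 19057 genes in all, 28 fell and the median was -2.31, against 0.01 for all genes. Calcrl alone among the genes that fell had a smoke mean below the filter, at 7.07, so it had passed through its air level. In such bulk samples, fewer cells of a type and less RNA per cell cannot be told apart.

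The falls were large. Of the 33 tested genes, 27 were called at least 2-fold lower, 23 at least 4-fold lower and 9 at least 8-fold lower, while these shares over all genes were 6.23%, 2.15% and 0.355%. Both smoke arrays lay below both air arrays for 29 of the 33 and above them for Car4 alone, against 24.8% and 34.8% of all genes. The called falls ran from 1.78-fold for Calcrl to 13.7-fold for Myzap, and a median of 16.2% of the air signal was left. Across the 33 genes, brighter genes in air fell further (Spearman rho = -0.63, a description across genes that share the same arrays and the same floor).

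The junction and surface proteins fell without exception among those tested, 9 of 9, with a median of -2.96. Cldn5, the claudin that seals endothelial tight junctions, read 13.31 and 13.91 on the wild type air arrays, 10.03 and 10.82 on the wild type smoke arrays and 10.09 and 9.56 on the Spp1-/- smoke arrays. Both air values stood above all 4 smoke values by over 2 log2 units. The change in wild type was -3.18 ± 0.36 (SE, adjusted p = 0.00553). Esam, an adhesion molecule of endothelial junctions, read 12.78 and 13.41 in air, 9.53 and 10.20 in wild type smoke and 10.04 and 9.74 in Spp1-/- smoke. It fell by 3.23 in wild type (adjusted p = 0.00381), and the smoke groups overlapped each other. Icam2, a ligand of leukocyte integrins, read 13.06 and 13.47 in air, 9.96 and 10.65 in wild type smoke and 10.45 and 9.91 in Spp1-/- smoke. Its fall was 7.78-fold (adjusted p = 0.00456). Plvap, the protein of the diaphragms of caveolae and fenestrae, read 11.31 and 12.18 in air, 8.52 and 8.85 in wild type smoke and 8.68 and 8.33 in Spp1-/- smoke. Its 2 air arrays had an SD of 0.61, yet both lay far above the smoke arrays, and the fall was 8.33-fold (adjusted p = 0.00443).

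Adgrf5, an adhesion G protein-coupled receptor also found on alveolar type II epithelium, read 12.65 and 12.79 in air, 9.21 and 9.16 in wild type smoke and 9.96 and 9.45 in Spp1-/- smoke. It fell 11.6-fold in wild type (adjusted p = 0.00157), its dimmer probe differed by -0.36, and the mean of both changed by -1.95. Its related receptor Adgrl4 fell by 2.38, and the sialomucin gene Emcn by 2.75. Pecam1, which leukocytes and platelets also carry, fell by 2.54 (adjusted p = 0.00193). Cdh5, the VE-cadherin of adherens junctions and among the genes most restricted to endothelium, fell from 10.75 ± 0.19 (SD, n = 2) to 8.40 ± 0.28, or 5.09-fold. Of the genes below the filter in this role, the C-type lectin gene Clec14a stood at 7.22 ± 0.08 in air and 7.03 ± 0.05 in wild type smoke, and Myct1 at 7.27 ± 0.09 and 7.25 ± 0.04. Both lie at the median of all probes, where no fall of the size of Cdh5 could be measured.

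Among the VEGF and Tie receptors, 3 of 4 tested genes fell. Flt1, the VEGF receptor that acts largely as a decoy, stood at 13.35 ± 0.50 in air and 11.13 ± 0.08 in wild type smoke, a 4.66-fold fall, and kept a smoke signal far above the median of all probes. Tek, the angiopoietin receptor, changed by -2.29 ± 0.13 (SE, adjusted p = 0.00157), and Ptprb, a phosphatase that acts on Tek and on VE-cadherin, by -2.44 ± 0.43 (adjusted p = 0.0184). Kdr, the main signalling receptor for VEGF, read 7.27 and 7.5 in air, 7.32 and 7.32 in wild type smoke and 7.52 and 7.46 in Spp1-/- smoke. These values overlapped between air and wild type smoke and lay close to the median of all probes (change -0.07, adjusted p = 0.732). The other Kdr probe was dimmer still, with a mean of 7.24, and Tie1, an orphan receptor of the Tie pair, was below the filter at 7.35 in air and 7.21 in wild type smoke. No level of these receptors can be read from such values.

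All 3 guidance and matrix genes fell. Egfl7, a secreted factor that endothelial cells lay into their matrix, read 12.42 and 13.15 in air, 9.14 and 9.20 in wild type smoke and 9.35 and 8.77 in Spp1-/- smoke. The air arrays stood more than 3 units above every smoke array, and the wild type change was -3.61 ± 0.30 (SE, adjusted p = 0.00274). The dimmer Egfl7 probes differed by -2.68 and 0.16, and the mean of all 3 changed by -2.05. Robo4, a receptor that stabilises vessels, read 11.35 and 10.74 in air, 7.76 and 8.28 in wild type smoke and 8.89 and 8.47 in Spp1-/- smoke, which lay above wild type smoke without overlap. It fell 8.13-fold in wild type by its brightest probe. Its 3 dimmer probes, at means of 6.92 to 7.49, differed by 0.02, 0.21 and 0.04. With the mean of its probes above the filter, which leaves out the dimmest, Robo4 changed by -0.93 (adjusted p = 0.0139). Mmrn2, a matrix protein that binds Clec14a, changed by -2.11 (adjusted p = 0.0106).

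The BMP9 and ALK1 branch keeps vessels quiescent, and its 3 genes differed in how far they moved. Tmem100, a membrane protein whose expression in endothelium depends on ALK1, read 11.47 and 11.43 in air, 8.14 and 8.52 in wild type smoke and 8.22 and 8.21 in Spp1-/- smoke. It fell by 3.12 with the air arrays nearly equal (adjusted p = 0.00128). The co-receptor endoglin, Eng, which macrophages can also express, fell by 1.91 (adjusted p = 0.00375). Acvrl1, the ALK1 receptor itself, read 8.70 and 9.40 in air, 8.13 and 8.17 in wild type smoke and 8.0 and 8.21 in Spp1-/- smoke. The air arrays overlapped neither smoke group, but their spread was wide and the change of -0.90 ± 0.24 (SE) did not pass in wild type (adjusted p = 0.0572).

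Of the transcription factors on the list, Sox17 and Sox18 fell, while Sox7, the other F group Sox gene and not on the list, rose by 0.89 (adjusted p = 0.0205). Sox18 changed by -2.71 ± 0.16 (SE, adjusted p = 0.0016) and Sox17, known for arterial endothelium, by -1.31 ± 0.26 (adjusted p = 0.024). The second Sox17 probe, not tested, averaged 9.14 in air and 7.37 in wild type smoke. Epas1, the hypoxia-inducible factor HIF-2 alpha, read 7.34 and 7.25 in air, 7.33 and 7.43 in wild type smoke and 7.27 and 7.24 in Spp1-/- smoke. All 6 arrays lay at the median of all probes, and neither of its probes gave a readable level (change 0.08, adjusted p = 0.646).

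Genes of vascular tone and of peptide and lipid receptors fell in 5 of 5 tested cases. Hpgd, the enzyme that inactivates prostaglandin E2 and is also known in macrophages, read 12.15 and 12.31 in air, 8.93 and 8.95 in wild type smoke and 9.16 and 8.83 in Spp1-/- smoke. Its replicate arrays differed little and its fall was 9.78-fold (adjusted p = 0.00128). Ramp2, the partner that turns the receptor Calcrl into an adrenomedullin receptor, read 13.10 and 13.61 in air, 10.33 and 10.60 in wild type smoke and 10.94 and 10.20 in Spp1-/- smoke. It fell 7.43-fold, whereas Calcrl, read near the floor, fell 1.78-fold from 7.90 ± 0.27 to 7.07 ± 0.02 (SD, n = 2). Ednrb, the endothelin B receptor of aerocytes, fell by 2.24 (adjusted p = 0.00376) and the ligand endothelin 1, Edn1, by 1.63 (adjusted p = 0.0247). Nos3, the endothelial nitric oxide synthase, and the sphingosine phosphate receptor gene S1pr1 were below the filter, at 7.24 ± 0.22 and 7.07 ± 0.01 in air.

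Of the capillary genes 3 of 4 fell and Car4 rose, and of the 2 haemostasis genes Thbd fell. Myzap, a junction-associated protein best known from heart muscle, read 11.70 and 11.88 in air, 7.99 and 8.04 in wild type smoke and 8.54 and 8.21 in Spp1-/- smoke, and its change of -3.78 ± 0.15 (SE, adjusted p = 0.00128) was the largest on the list by brightest probe. Its dimmer probe, above the filter, differed by -0.76, and with the mean of both Myzap changed by -2.27, less than Hpgd at -3.29. Aqp1, a water channel also of red cells and mesothelium, read 12.59 and 12.95 in air, 9.78 and 10.08 in wild type smoke and 10.09 and 9.48 in Spp1-/- smoke. It fell by 2.84, and its 2 dimmer probes, not tested, differed by -1.98 and -1.4. Gpihbp1, which holds lipoprotein lipase on capillaries, fell 5.02-fold (adjusted p = 0.00735).

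Car4, a membrane carbonic anhydrase of aerocytes that mouse alveolar macrophages also express, ran the other way. It read 11.69 and 11.39 in air, 13.18 and 13.02 in wild type smoke and 13.09 and 13.41 in Spp1-/- smoke. All 4 smoke arrays stood above both air arrays, and Car4 rose by 1.56 ± 0.17 (SE, adjusted p = 0.00484), or 2.95-fold, in wild type. Its fellow aerocyte gene Ednrb fell on the same arrays. Of 8 tested alveolar macrophage marker genes, 2 rose and 1 fell in this comparison, with a median of 0.30, and their mean level per array was 11.29 to 11.36 in air and 11.45 to 11.49 in wild type smoke. The part of macrophage RNA in the Car4 signal was not tested.

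Vwf, the clotting factor stored by endothelium and platelets, was bright and did not separate air from wild type smoke. It read 12.42 and 12.89 in air, 12.49 and 12.53 in wild type smoke and 12.29 and 12.06 in Spp1-/- smoke. Its change of -0.14 ± 0.18 (SE) did not pass (adjusted p = 0.663). Its second probe, with a mean of 7.14, lay at the median of all probes. Platelet and megakaryocyte genes fell in 5 of 6 tested cases, with a median of -1.56, and their mean level per array was 10.10 to 10.31 in air and 8.55 to 9.10 in wild type smoke. Thbd, the thrombin receptor thrombomodulin that monocytes and dendritic cells also carry, read 11.25 and 11.44 in air, 9.96 and 9.98 in wild type smoke and 10.14 and 10.31 in Spp1-/- smoke, and fell 2.58-fold (adjusted p = 0.00301).

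**Figure D2:**
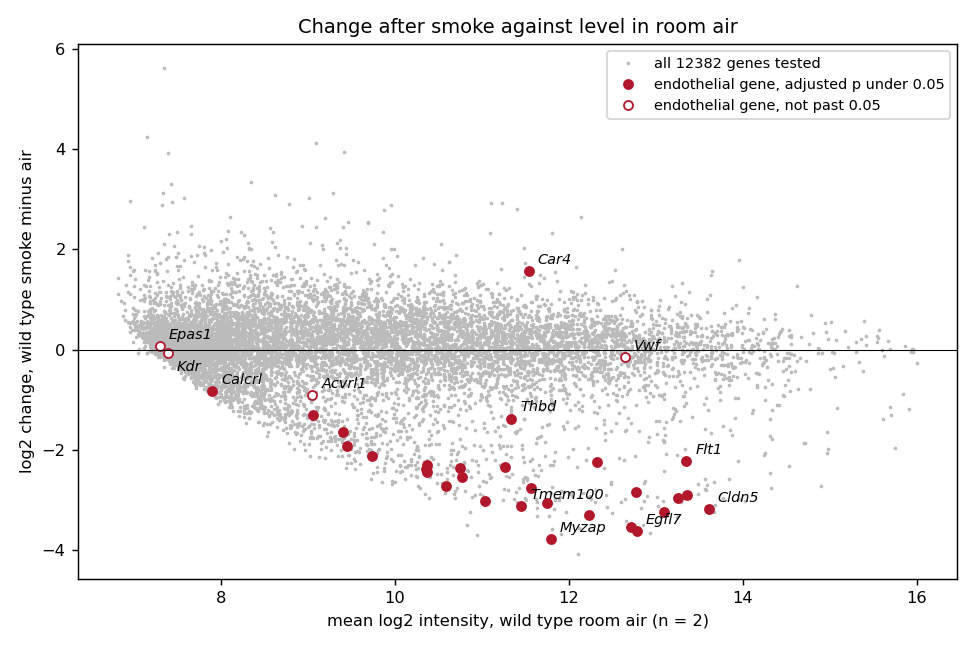
Log2 change from wild type air to wild type smoke (y axis) against the mean log2 intensity in wild type air (x axis, n = 2), with grey points for all 12382 genes tested and red points for the 33 endothelial genes, filled where adjusted p was under 0.05. Most red points lie along the lower edge of the cloud, Car4 lies above 0 at 1.56, and the unfilled points are Acvrl1, Epas1, Kdr and Vwf.

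Genes with no other cell type noted on the list and genes also known in other cells gave like medians. Of the 21 tested in the first set, 19 fell and 0 rose, with a median of -2.38. Of the 12 tested in the second, 9 fell and Car4 rose, with a median of -2.22. The dimmer probes of the same genes add a reading from the same RNA. Of 24 such probes on 16 genes, 12 passed the filter and 9 of those were lower in smoke, with changes from -2.68 to 0.21. The other 12 lay below the filter and moved by at most 0.41 in either direction. Some genes, such as Aqp1, gave several of these probes. Among all 12382 genes tested, by brightest probe, 5389 had a negative change.

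The calls depended in part on single arrays. Without wild type smoke replicate 1, 21 genes fell, and Calcrl, Edn1, Flt1, Gpihbp1, Mmrn2, Ptprb and Sox17 lost their calls. Calcrl, Edn1 and Ptprb lost theirs without wild type smoke replicate 2. Without either Spp1-/- array, which lends only its spread to this comparison, Calcrl, Edn1 and Sox17 did. None of the 12 largest falls was lost in these fits. Acvrl1 passed without wild type air replicate 1, among the brighter 25% of probes, with the replicate block and with the floor removed.

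Other genes of the same pathways, listed beside the 38, moved with more variety. Of 12 genes of the VEGF, angiopoietin and apelin pathway, 7 were tested, 4 fell and 2 rose. Vegfc, a growth factor best known for lymphatic vessels, changed by -1.26 (adjusted p = 0.0022) and the apelin receptor gene Aplnr by -1.51, while the co-receptor gene Nrp2 rose by 1.62 (adjusted p = 0.00205). Of 9 BMP and TGF-beta partners, 6 were tested and 4 fell, led by Tgfbr3 at -2.29 and the BMP receptor gene Bmpr2 at -1.20, and the TGF-beta receptor gene Tgfbr2 rose by 0.80. In the Notch and ephrin pathway 5 of 7 tested genes fell and 0 rose. Its transcription factor gene Hey1 changed by -2.19, the venous ephrin receptor gene Ephb4 by -2.03 and the arterial ligand gene Efnb2 by -0.85.

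A further list of 25 endothelial genes, 18 of them tested, had 12 that fell and 2 that rose, with a median of -1.34. The caveolin gene Cav1 changed by -1.35, Arhgef15 by -2.87 and the adhesion gene Mcam by -1.75 (adjusted p between 0.00233 and 0.00275). The 2 that rose, named after their values were seen, were Cd93 at 0.83 and Sox7 at 0.89. Cd93, a surface receptor that myeloid cells share, stood at 11.77 in air and 12.60 in wild type smoke. Of 5 leukocyte adhesion genes only 2 were tested. Icam1 fell by 0.56 (adjusted p = 0.0402) and Vcam1 changed by 0.94 without passing (adjusted p = 0.0541).

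Markers of other lung cells moved on the same arrays. Of the tested genes, 9 of 9 fibroblast genes fell, with a median of -2.30 and a mean level of 11.14 to 11.35 in air and 8.80 to 9.01 in wild type smoke. For alveolar type II epithelium 6 of 7 fell (median -1.85, 12.62 to 12.93 in air and 10.49 to 11 in wild type smoke), with Lamp3 below the filter. For alveolar type I epithelium 5 of 7 fell and 1 rose, for club and ciliated epithelium 4 of 5 fell, and for smooth muscle and pericytes 5 of 6 fell. Their mean levels per array were 11.04 to 11.28, 12.10 to 12.37 and 9.02 to 9.21 in air and 9.43 to 9.80, 10.76 to 10.98 and 7.98 to 8.03 in wild type smoke. Lymphatic endothelium had 3 of 6 that fell, among them Ccl21a at -2.98 and Lyve1 at -2.56, and 1 that rose. The gene that rose was Pdpn at 0.97, which is on the type I list too and is the same gene that rose there. Prox1, the defining transcription factor of lymphatic endothelium, lay near the median of all probes, at 7.45 in air and 7.44 in wild type smoke. A fall of the size of Ccl21a could not be measured there. Mesothelium had 2 of 2, B cells 2 of 3, T and NK cells 4 of 5 and red cells 2 of 3 that fell. In conventional dendritic cells 1 of 7 rose and 0 fell, in monocytes 1 of 4 fell, and in neutrophils 1 of 5 rose and 0 fell. The endothelial mean level was 10.95 to 11.25 in air and 8.83 to 9.05 in wild type smoke, and 8.78 to 9.03 in Spp1-/- smoke. The difference between the endothelial list and the other lists was not tested, and the part of the mix of cells in the endothelial change was not tested.

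**Figure D3:**
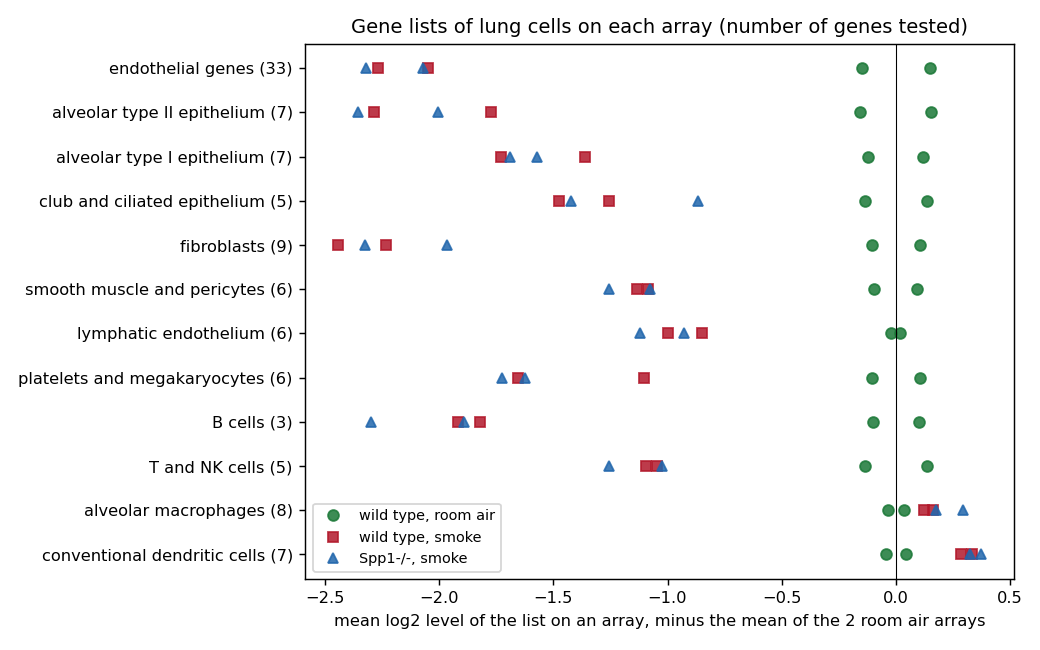
Mean log2 level of each gene list on each array minus the mean of its 2 room air arrays (x axis), for the 33 tested endothelial genes and 11 lists of other cells (y axis, number of tested genes in brackets). Endothelial, epithelial, fibroblast, muscle, platelet and lymphocyte lists lie left of 0 on all 4 smoke arrays, and alveolar macrophage and dendritic cell lists lie right of it.

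The endothelial genes, like the fibroblast and type II epithelium lists, shifted together between arrays of the same group. In wild type air 25 of the 33 tested genes were higher on replicate 2 (median difference 0.34), in wild type smoke 29 were higher on replicate 2 (0.11), and in Spp1-/- smoke 6 were higher on replicate 2 (-0.27). Over all 12382 genes the share higher on replicate 2 was 50.2%, 48.4% and 48.2%, with medians of 0, -0.01 and -0.01. Taking the 3 groups in the same order, an endothelial gene had a median SD of 0.27, 0.18 and 0.21, against 0.15, 0.09 and 0.09 for all genes. The mean level of the fibroblast list was 11.14 and 11.35 on replicates 1 and 2 in air, 8.80 and 9.01 in wild type smoke and 9.28 and 8.92 in Spp1-/- smoke, and that of type II epithelium was 12.62 and 12.93, 10.49 and 11, and 10.77 and 10.42. Both lists moved in the same directions as the endothelial list in all 3 groups. Not every list did. That of alveolar macrophages moved the opposite way in all 3 groups, from 11.36 to 11.29, 11.49 to 11.45 and 11.5 to 11.62. That of lymphatic endothelium went from 9.88 to 9.84 in air and from 9.01 to 8.86 in wild type smoke.

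The second comparison set Spp1-/- smoke against wild type smoke. The arrays of both genotypes overlapped for most endothelial genes, and 0 of the 33 tested genes passed in limma, as did 0% of all 12382 genes. At an unadjusted p under 0.05 there was 1 endothelial gene, Adgrf5 (3.03% of the 33), against 540 genes in all (4.36%). The median difference was -0.10, against 0.00 over all genes, and the differences ran from -0.60 for Cldn5 to 0.66 for Robo4. The groups did not overlap for 5 genes that were lower in Spp1-/- and 6 that were higher, 15.2% and 18.2% of the 33, where 19.5% and 18.3% of all genes did so. These shares lie near or below the background.

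The 4 smallest p-values belonged to genes with higher values in Spp1-/- smoke, and none passed. Adgrf5 differed by 0.52 ± 0.19 (SE, 95% interval 0.04 to 1.0, adjusted p = 1), with 9.96 and 9.45 in Spp1-/- against 9.21 and 9.16 in wild type smoke. Myzap differed by 0.36 (interval -0.01 to 0.73), Robo4 by 0.66 (interval -0.08 to 1.40) and Thbd by 0.25 (interval -0.05 to 0.55). The dimmer probes, not tested, differed by 0.03 for Adgrf5, -0.06 for Myzap and -0.03, -0.08 and 0.01 for Robo4. With the mean of the probes above the filter, Adgrf5 differed by 0.28, Myzap by 0.15 and Robo4 by 0.19. For 26 of the 33 genes the 95% interval lay within 1 log2 unit of 0, and over all 33 the intervals reached from -1.52 to 1.40. Differences of less than 2-fold between the genotypes could therefore have been missed for most of these genes, and larger ones for the others, such as Cldn5 (interval -1.52 to 0.31) and Ptprb (interval -1.20 to 1.0). Without Spp1-/- replicate 2 the median difference was 0.11 instead of -0.10, with 0 genes called in either fit.

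**Figure D4:**
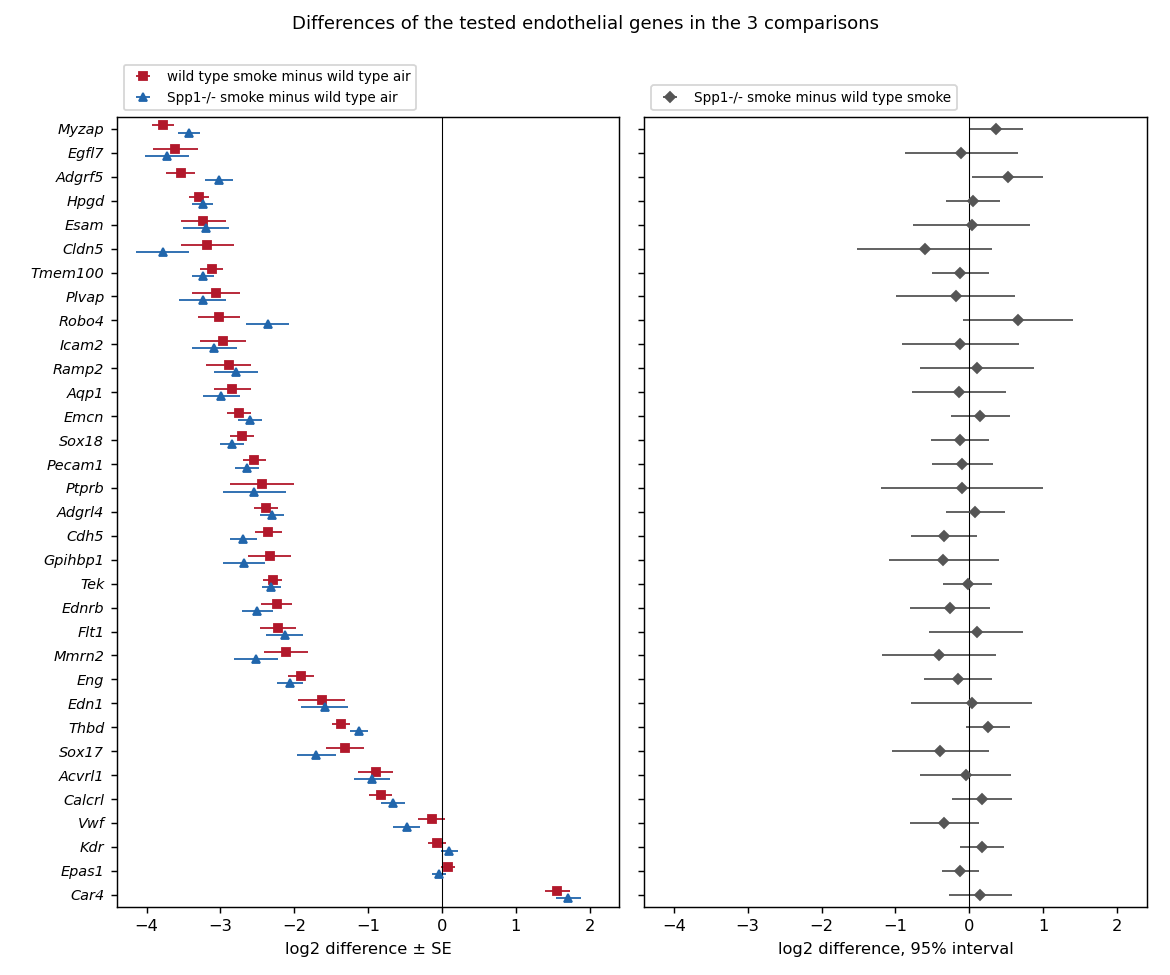
Log2 differences of the 33 tested endothelial genes (y axis, ordered by the wild type change), with smoke minus wild type air on the left for wild type (squares) and Spp1-/- (triangles, bars are SE) and Spp1-/- minus wild type smoke on the right (diamonds, bars are 95% intervals). On the left both symbols lie far below 0 for most genes and above 0 for Car4, and on the right the diamonds lie between -0.60 and 0.66.

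The third comparison set Spp1-/- smoke against wild type air, groups that differ in genotype and exposure at once. Of the 33 tested genes, 29 were called lower and Car4 higher, where 10.5% and 12.2% of all genes were. The median was -2.54, against 0.04 over all genes. At least 2-fold, 4-fold and 8-fold falls were called for 27, 24 and 9 genes, against 6.27%, 2.24% and 0.380% of all. The arrays did not overlap for 30 lower genes and for Car4, against 26.1% and 35.2% of all. It shares its air arrays with the first comparison and its Spp1-/- arrays with the second, so it is no independent reading. The called falls ran from -0.66 for Calcrl to -3.78 for Cldn5, 13.8-fold, and Egfl7 followed at 13.2-fold. Mmrn2 and Calcrl, both called lower, had Spp1-/- smoke means below the filter, at 7.22 and 7.24. Each had therefore passed the filter through its other arrays. Acvrl1 changed by -0.95 and passed here (adjusted p = 0.048), against -0.90 in wild type. Car4 was 3.27-fold higher (adjusted p = 0.00398), and Vwf at -0.48 (adjusted p = 0.134), Kdr at 0.10 and Epas1 at -0.04 did not pass.

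This comparison rested more on single arrays. Without Spp1-/- replicate 2, 21 genes were called lower, and Acvrl1, Calcrl, Edn1, Flt1, Mmrn2, Ptprb, Robo4 and Sox17 lost their calls. Acvrl1, Calcrl, Edn1, Ptprb and Sox17 lost theirs without Spp1-/- replicate 1, and Acvrl1, Calcrl and Edn1 without either wild type smoke array. Vwf passed as lower without wild type air replicate 1 (-0.71, adjusted p = 0.0198), where Calcrl did not.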

How the data were processed

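RNA of 6 arrays was extracted with Trizol and labelled with a kit for Illumina arrays, per the labels' protocols, and limma, version unstated, is listed in the submitters' processing notes. Analysis began from the authors' log2 intensities as deposited, whose sorted columns differed by at most 0.0056 between arrays, as after quantile normalization by the authors. The sources used here give neither background correction nor offset. Left out was a second table, whose 12 signal and detection columns carry headings that match no sample.

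Probes were named from the platform annotation, updated by Entrez identifier through RefSeq (34885 probes with 1 symbol, 18 with several, 10378 unnamed). The brighter 50% of probes were kept, each gene by its brightest probe. Fits used limma 3.58.1 in R 4.3.3 with 1 coefficient per group over all 6 arrays (3 residual and 2.24 prior degrees of freedom) and Benjamini-Hochberg adjustment, and were tested on simulated data. An exact test of 2 against 2 arrays was not used. The number of arrays limits the precision. Full values were given for the 12 largest called changes, the genes not called or higher, and the 4 smallest p between genotypes. The genes and lists were chosen with earlier results of these data known. Other pathway genes were named as up to 3 per list by smallest p. Alternatives are in the closing section.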

Additional observations from a re-analysis of the deposited data

How the results depend on the processing

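In wild type smoke against air, between 25 and 29 endothelial genes fell and 1 rose under each of the following settings. The probe settings were no filter, a stricter filter (brighter 25% of probes) and averaging the probes of a gene that passed the filter. The fit settings were a robust prior with intensity trend, weighted arrays, the compared groups alone and a 2-fold threshold. Values were also centred on the kept genes, or had the floor subtracted (offset 16, chosen after seeing the data). With single arrays left out the count ran from 21 to 29 and the median from -2.57 to -2.26. The median was -2.08 with the mean of a gene's kept probes and -2.87 with the floor removed. For Spp1-/- smoke against wild type air it was -2.17 and -2.86. In that comparison the count was 26 to 29 under these settings and 21 to 29 with single arrays left out (median -2.73 to -2.36). Between genotypes 0 endothelial genes passed under any setting, and the median ran from -0.16 to 0.11 with single arrays left out. Signs near 0 turned with single arrays left out, as Kdr ran from -0.19 to 0.04 and Vwf from -0.38 to 0.09 in wild type smoke, and Kdr from -0.02 to 0.22 in Spp1-/- smoke against air. Over all genes, 1274 fell in wild type smoke, but 771 at the 2-fold threshold, 778 in the compared groups alone, and 444 and 563 without wild type smoke replicate 1 or 2. In Spp1-/- smoke against air 1299 fell, but 776 at the 2-fold threshold and 491 and 385 without Spp1-/- replicate 1 or 2. Between genotypes 6 to 9 genes rose, none endothelial, with the stricter filter, the robust prior, weighted arrays, the compared groups alone or either air array left out, against 0 otherwise. Over all genes tested, same-numbered arrays did not deviate together (correlations of 0.137, -0.082 and -0.029). Of the 33 endothelial genes, 25 in air and 29 in wild type smoke were higher on replicate 2, against 6 in Spp1-/- smoke. With the replicate block 28 genes fell in wild type smoke (Edn1 lost, Acvrl1 gained) and 27 in Spp1-/- smoke against air, with 0 between genotypes. Values near the floor limit what Kdr, Epas1, Clec14a, Myct1, Tie1, Nos3 and S1pr1 can show.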
